A study of Mus musculus with 9 samples.

Results

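The Hsd3b genes and 5 further steroid enzyme genes were followed in the kidney cortex of fasted and fed mice. The 9 genes are Hsd3b2, Hsd3b3, Hsd3b4, Hsd3b7, Hsd11b1, Hsd11b2, Hsd17b11, Cyp7b1 and Akr1c21, taken by name from the 23420 genes of the deposited table. The set was selected on the normalized counts of Hsd3b2 and Hsd3b4 in this same comparison, because both are much lower in fasted cortex, and the question was which relatives share this. The values of Hsd3b2 and Hsd3b4 are therefore a description without a test, and the test results below concern the other 7 genes, whose names were chosen with earlier results of these data known. RNA came from pieces of about 50 mg of cortex of male C57/BL6 mice on a chow diet under equal periods of light and dark. Fasted mice (n = 4) had no food for 16 h before they were killed, and fed mice (n = 5) ate ad libitum. The labels name no genotype, transgene or other agent, and neither the age of the mice nor the hour of collection. One RNA sequencing library was made per mouse, and the libraries held between 18902645 and 32469467 reads in genes.

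Steroid dehydrogenases switch steroid hormones and sterols between active and inactive forms by moving hydrogen at single positions of the steroid rings. The classical 3β-hydroxysteroid dehydrogenases, made from the Hsd3b genes, oxidise the 3β-hydroxyl group and shift a double bond, a step that every active steroid hormone passes through in the gonads and adrenals. Mice carry several close copies with different tissues and activities: Hsd3b1 is the enzyme of adrenal and gonad, Hsd3b2 and Hsd3b3 are found in liver and kidney, the product of Hsd3b4 in kidney works as a reductase of 3-ketosteroids, and Hsd3b5 is a reductase of male liver. In the kidney, steroid enzymes are best known for setting the local level of corticosterone, through Hsd11b1, which regenerates it, and Hsd11b2, which inactivates it in the distal nephron and so guards the mineralocorticoid receptor.

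All 12 of 12 listed PPARα target genes were higher in fasted cortex, against 5.72% of all genes tested, with a median log2 change of 2.32. Pdk4 was among them (12504 ± 751 normalized counts fasted, 582 ± 324 fed, SD). The list was chosen with earlier results of these data known, so it describes the fast and is no independent check of it. Of the defining markers of adrenal cortex, Cyp11b1 and Cyp11b2 were listed at 0 in all 9 libraries and Cyp21a1 had 1 read in all. Cyp11a1 averaged 0.94 normalized counts fasted and 0.73 fed, but Star averaged 261 fasted and 217 fed. On the wider list of markers, Scarb1 averaged 422 fasted and 378 fed, and Akr1b7 averaged 54.1 fasted and 74.6 fed. The 12 adrenal cortex markers summed to 738 to 780 normalized counts in fasted and 587 to 732 in fed libraries, and none of the 3 that could be tested changed. The 14 proximal tubule markers summed to 565329 to 659597 in fasted and 618491 to 879849 in fed libraries, with 1 higher, 1 lower and 12 not past the threshold. The 11 markers of the distal nephron and collecting duct summed to 173494 to 208223 in fasted and 155943 to 192710 in fed libraries, and 1 of them was lower. Hepatocyte transcripts were present, with Alb (albumin) between 1848 and 7396 normalized counts in fasted and between 251 and 10091 in fed libraries. The ribosomal RNA entry Rn45s took 5.53% of the reads of Fed 3 and 2.36% of those of Fasted 1, against 0.513% to 1.38% in the other libraries.

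Among the 9 genes, 3 had fasted and fed values that did not overlap, all of them Hsd3b genes of one cluster on chromosome 3 and all lower in fasted cortex. Over all 15098 genes tested, 6.64% were lower and 7.62% higher in fasted cortex without overlap. By limma on log2(normalized count + 1), with Benjamini-Hochberg adjustment over all genes tested and a threshold of 0.05, 4 of the 9 genes were lower and none was higher, against 5.25% lower and 5.72% higher among all genes. Nothing is read from these shares, because 2 of the 9 genes were chosen for their decrease in this comparison. Of the 7 relatives, Hsd3b3 and Akr1c21 fell and Hsd3b7, Hsd11b1, Hsd11b2, Hsd17b11 and Cyp7b1 did not pass. The median log2 change of the 7 relatives was 0.20, beside 0.00 over all genes tested. With Hsd3b2 and Hsd3b4, chosen for their decrease, the median of the 9 was -0.36, and nothing is read from it. The cortex was sequenced in bulk, so fewer cells of a type and less RNA per cell cannot be told apart.

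**Figure D1:**
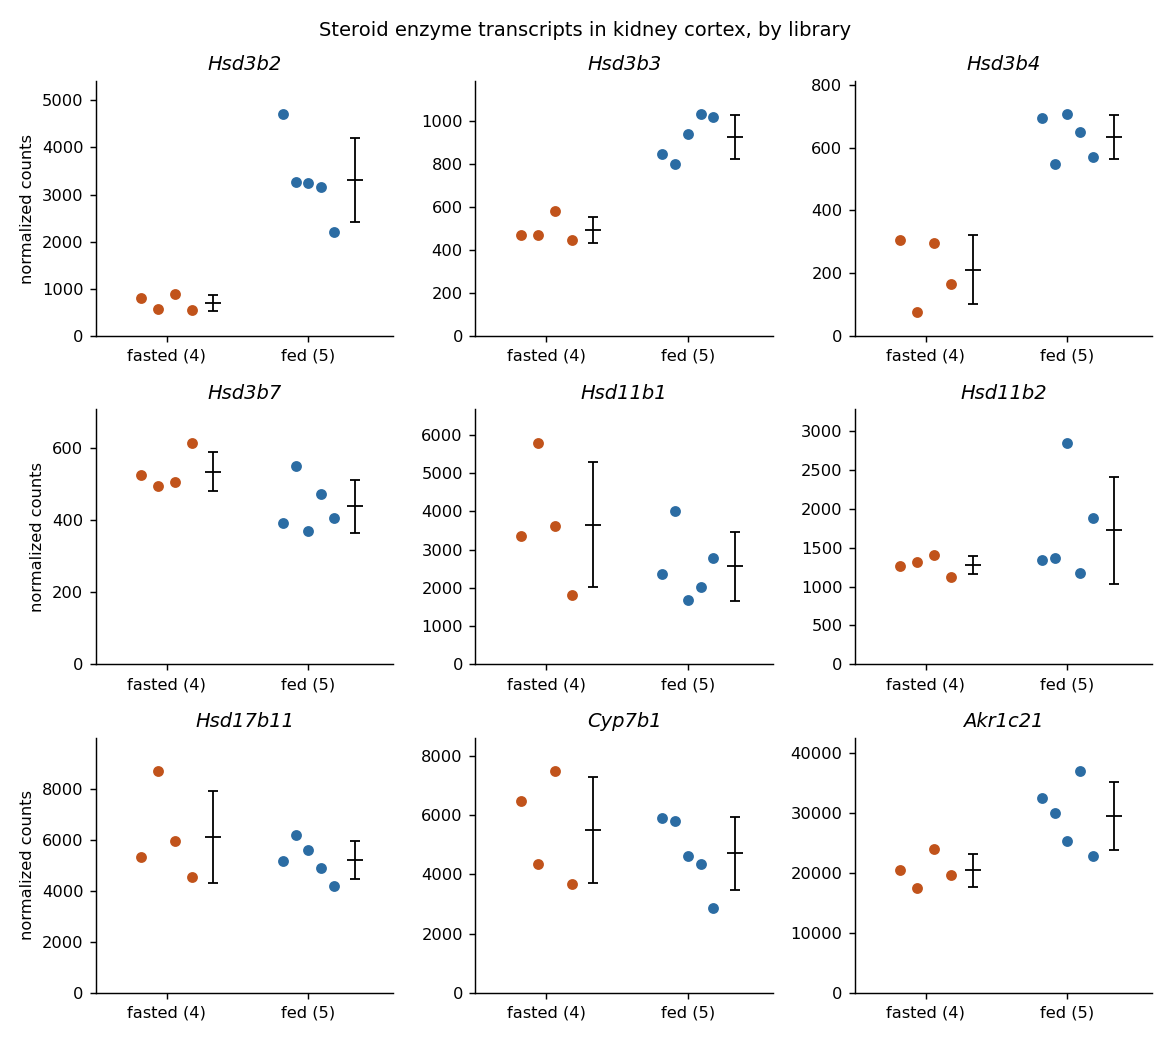
Normalized counts of the 9 steroid enzyme genes in each of 4 fasted libraries (left in each panel) and 5 fed libraries (right), with points for single mice and the mean ± SD in black beside them; each panel has its own linear scale starting at 0. Fasted and fed points are apart for Hsd3b2, Hsd3b3 and Hsd3b4 and mix for the other 6 genes.

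Hsd3b2, Hsd3b3 and Hsd3b4 lie in one cluster on the minus strand of chromosome 3 in the mouse genome build GRCm38, at chr3:98709255-98724543, chr3:98741523-98763127 and chr3:98499071-98510514, in the GENCODE M21 annotation. Their coding sequences all have 1119 bases. Hsd3b2 and Hsd3b3 share 95.1% of these bases, and Hsd3b4 shares 81.5% with Hsd3b2 and 81.0% with Hsd3b3. Hsd3b7, on another chromosome at chr7:127800604-127803802 (plus strand), shares 53.4% with Hsd3b2. The first 90 coding bases of the 4 genes, from the GENCODE M21 transcripts, are shown because the closeness of the copies decides how well short reads can be told apart between them. Capitals mark bases that differ from Hsd3b2: there are 4 in Hsd3b3, 12 in Hsd3b4 and 62 in Hsd3b7.
Hsd3b2: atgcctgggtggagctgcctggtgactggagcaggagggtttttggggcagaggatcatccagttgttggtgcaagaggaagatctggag
Hsd3b3: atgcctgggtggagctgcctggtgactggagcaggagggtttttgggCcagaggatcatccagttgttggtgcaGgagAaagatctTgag
Hsd3b4: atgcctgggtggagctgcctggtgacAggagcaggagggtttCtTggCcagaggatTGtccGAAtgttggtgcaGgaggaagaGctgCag
Hsd3b7: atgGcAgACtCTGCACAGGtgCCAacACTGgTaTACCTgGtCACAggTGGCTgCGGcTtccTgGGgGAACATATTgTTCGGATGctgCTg
Stretches of 100 bases found word for word in another gene made up 8.28% of the Hsd3b2 transcript, 4.67% of Hsd3b3 and 100% of Hsd3b4. With stretches of 50 bases these shares were 26.9% for Hsd3b2, 8.73% for Hsd3b3 and 100% for Hsd3b4. Some reads of Hsd3b2 and Hsd3b3 may thus be hard to tell apart from those of other copies. For Hsd3b4 the other gene is Gm10681, a predicted copy with identical coding sequence in the same cluster, which is listed at 0 in all 9 libraries. A further predicted copy, Gm4450, shares 99.6% of the coding sequence with Hsd3b4 and is not among the genes listed. Reads counted as Hsd3b4 cannot be told apart from reads of Gm10681, and reads of Gm4450 may be hard to tell apart as well. The counts of Hsd3b4 are uncertain in this sense. The counts of Hsd3b7 are uncertain too: 72.0% of its 100-base stretches lie in other annotated genes, most of them in Gm49388, a gene on the same strand that shares 1717 exonic bases with it.

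Hsd3b2 had 811, 563, 893 and 550 normalized counts in the 4 fasted libraries, against 4702, 3259, 3240, 3170 and 2203 in the 5 fed libraries. Every fasted value lay below the lowest fed value. The means were 704 ± 174 fasted and 3315 ± 893 fed (SD, n = 4 and 5), a ratio of 0.212. The log2 change was -2.23 (SE 0.20), and only 5 of the 15098 genes tested had a lower one. Over 17 alternative analyses the log2 change stayed between -2.36 and -2.09. Fed 1, with the most Hsd3b2, had the lowest Alb of all libraries (251 normalized counts). Fed 2, with the highest Alb (10091), had 3259 of Hsd3b2. Fed 5, with the least Hsd3b2 of the fed libraries (2203), had a low Alb as well (402). The part of hepatocyte transcripts in the Hsd3b2 values was not tested.

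Hsd3b4 had 307, 77.1, 296 and 166 normalized counts in fasted libraries, against 694, 550, 706, 651 and 571 in fed libraries. The groups were again apart, and here the fasted mice were the more scattered, with Fasted 2 far down. The means were 212 ± 110 fasted and 634 ± 71.2 fed, a ratio of 0.334, and the log2 change was -1.77 (SE 0.33). It was -1.35 without Fasted 2 and lay between -2.01 and -1.35 over the 17 alternatives.

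Hsd3b3 shared the decrease, to a smaller extent. It had 471, 472, 583 and 448 normalized counts in fasted libraries, against 848, 800, 939, 1032 and 1019 in fed libraries. The highest fasted value was below the lowest fed value, and the spread within each group was small. The means were 493 ± 60.8 fasted and 928 ± 102 fed, a ratio of 0.531. The log2 change was -0.91 (95% confidence interval -1.14 to -0.68, limma adjusted p = 0.000452). The change passed the threshold in all 17 alternatives, with adjusted p between 6.64e-13 and 0.00591. In the authors' deposited table the adjusted p of Hsd3b3 is 5.79e-13.

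The mixture of the 3 transcripts differed between the groups. Hsd3b2 made up 51.1%, 50.6%, 50.4% and 47.2% of their summed normalized counts in fasted libraries, against 75.3%, 70.7%, 66.3%, 65.3% and 58.1% in fed libraries. The share of Hsd3b3 was 35.9% ± 5.71 fasted and 19.7% ± 4.92 fed, and that of Hsd3b4 was 14.3% ± 5.33 fasted and 13.2% ± 1.66 fed. The summed level was 1589, 1112, 1772 and 1164 in fasted libraries, against 6244, 4608, 4886, 4852 and 3793 in fed libraries. In these counts the pool was smaller in fasted cortex, and Hsd3b2 was near the level of the other copies together. The pool and the shares are a description only, because Hsd3b2 and Hsd3b4 were chosen for their decrease. The log2 ratio of Hsd3b2 to Hsd3b3 averaged 0.49 ± 0.26 fasted and 1.80 ± 0.50 fed, without overlap, and is given with no test because Hsd3b2 was chosen for its decrease. The log2 ratio of Hsd3b4 to Hsd3b3 averaged -1.40 ± 0.86 fasted and -0.55 ± 0.21 fed and overlapped between the groups.

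**Figure D2:**
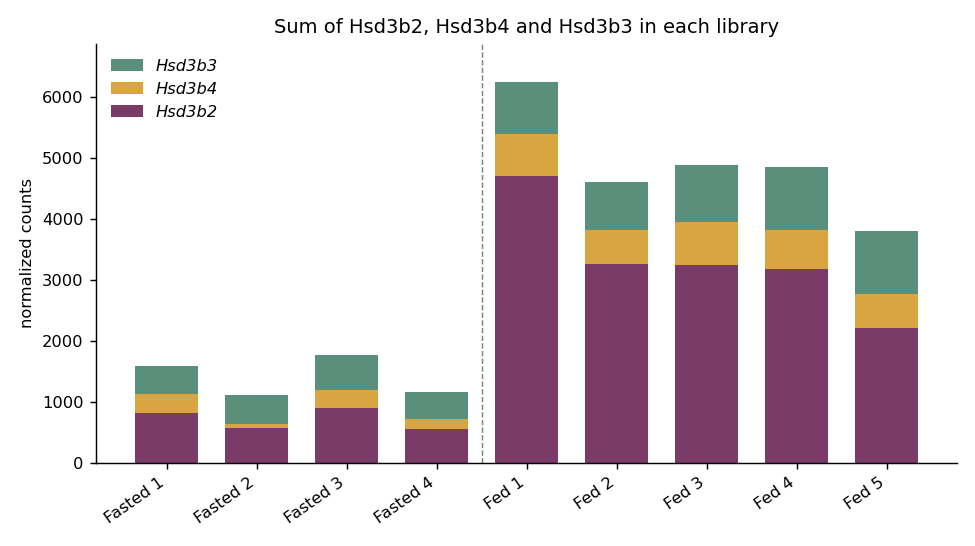
Normalized counts of Hsd3b2, Hsd3b4 and Hsd3b3 stacked in each library, 4 fasted libraries left of the dashed line and 5 fed libraries right of it. The stacks reach 1112 to 1772 in fasted and 3793 to 6244 in fed libraries, and the Hsd3b2 part (bottom) shrinks most.

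Set per length, the order of the copies depends on the length used. Per kilobase of annotated exon, Hsd3b2 had 191 normalized counts in fasted and 897 in fed cortex, Hsd3b4 had 129 fasted and 388 fed, and Hsd3b3 had 77.1 fasted and 145 fed. Per kilobase of coding sequence, Hsd3b2 had 629 fasted and 2962 fed, Hsd3b3 had 441 fasted and 829 fed, and Hsd3b4 had 189 fasted and 567 fed. Hsd3b3 and Hsd3b4 change places between these scales, since 6396 exonic bases are annotated for Hsd3b3 and 1637 for Hsd3b4. Hsd3b2 was the highest of the 3 in both groups on both scales.

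The other Hsd3b genes of the cluster were close to absent from cortex. Hsd3b1, the adrenal and gonad form, had 17 reads in the fasted and 17 in the fed libraries together. Hsd3b6, known from placenta, testis and adrenal, had 1 read in fasted and 5 in fed libraries. Hsd3b5, the male liver form, had 10 reads in fasted libraries and 64 in fed libraries, of which 34 were in Fed 2, the library with the highest Alb. None of these reached the mean of 10 normalized counts needed for the test. The counts of the chromosome 3 cluster thus lay almost wholly in the rows of Hsd3b2, Hsd3b3 and Hsd3b4. The limits from likeness of the copies given above apply here.

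The promoters of the 3 genes, 300 bases around each annotated start, are printed because the genes are neighbours that were all lower in fasted cortex. They come from RefSeq on build GRCm38.p6 and lie on the minus strand at chr3:98724494-98724793 for Hsd3b2, chr3:98763079-98763378 for Hsd3b3 and chr3:98510518-98510817 for Hsd3b4, the last 2 being the first of 2 starts in the table. The windows are set by the RefSeq starts, and that of Hsd3b4 lies wholly upstream of the gene's start in GENCODE M21, at 98510514. Capitals mark the longest run shared by Hsd3b2 and Hsd3b3 in those 2 genes, and the matches to GTTAAT, read on the other strand, in Hsd3b4.
Hsd3b2: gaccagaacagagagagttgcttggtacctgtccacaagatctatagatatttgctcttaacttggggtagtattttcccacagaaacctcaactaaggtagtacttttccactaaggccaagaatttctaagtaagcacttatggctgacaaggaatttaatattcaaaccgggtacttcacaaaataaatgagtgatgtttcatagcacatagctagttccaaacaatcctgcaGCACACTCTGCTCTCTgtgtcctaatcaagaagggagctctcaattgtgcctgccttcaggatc
Hsd3b3: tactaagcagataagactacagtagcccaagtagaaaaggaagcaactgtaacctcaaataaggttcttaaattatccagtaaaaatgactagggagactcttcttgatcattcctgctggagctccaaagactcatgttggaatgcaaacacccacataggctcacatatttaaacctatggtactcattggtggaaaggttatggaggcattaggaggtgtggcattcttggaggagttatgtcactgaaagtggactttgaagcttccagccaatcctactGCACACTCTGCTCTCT
Hsd3b4: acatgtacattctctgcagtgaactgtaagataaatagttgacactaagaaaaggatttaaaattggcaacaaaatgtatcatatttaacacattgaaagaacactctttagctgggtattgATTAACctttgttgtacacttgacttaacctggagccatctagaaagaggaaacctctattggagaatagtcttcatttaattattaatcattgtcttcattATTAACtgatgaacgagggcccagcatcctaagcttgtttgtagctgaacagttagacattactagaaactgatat
Within the 300-base windows printed here, the 3 promoters shared only short runs. The longest run shared by Hsd3b2 and Hsd3b3 was 16 bases, inside an alignment of 33 columns with 87.9% identity. That run ends at the last base of the Hsd3b3 window but not of the Hsd3b2 window, so a longer shared stretch would not be seen. Hsd3b2 and Hsd3b4 shared at most 8 bases. Only the first start of each gene was compared. The promoter of Hsd3b4 shared 271 unbroken bases with that of Gm10681. Promoters were found for 7 of the 9 genes. On both strands, AGGTCA (the half-site of many nuclear receptors) matched none of them and 16.3% of the 32544 promoters searched. AGAACA and TGTTCT with 3 bases of any kind between them, a glucocorticoid receptor site, matched none of the 7 and 0.00922% of all promoters. GTTAAT, a half-site of HNF1, matched at 2 places in Hsd3b4 and at 1 in Akr1c21, and in 7.14% of all promoters. TATAAA matched 2 times at the second start of Hsd3b4 and in 13.6% of all promoters. These are letter matches only, and their absence says nothing about a factor.

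Within 500 kb of the 6 annotated Hsd3b genes, 6 neighbours could be tested, of which 2 were higher, 1 was lower and 3 did not pass. Over all genes tested, 5.72% were higher and 5.25% lower. Nothing about the region is read from so few genes. Phgdh, the first enzyme of serine synthesis, rose, with 133 ± 17.4 fasted and 57.5 ± 19.5 fed (log2 change 1.26, limma adjusted p = 0.00894). Hao2, a peroxisomal hydroxy acid oxidase on the far side of the cluster, fell, with 5912 ± 1521 fasted and 10251 ± 2049 fed (log2 change -0.82, limma adjusted p = 0.0212). Zfp697, a zinc finger gene on the opposite strand that overlaps exons of Hsd3b2 by 99 bases and of Hsd3b3 by 281, had 1472 ± 293 fasted and 1679 ± 287 fed (log2 change -0.19, limma adjusted p = 0.475). Whether counting used the strand is not given in the sources used here, so reads in those shared bases cannot be told apart.

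**Figure D3:**
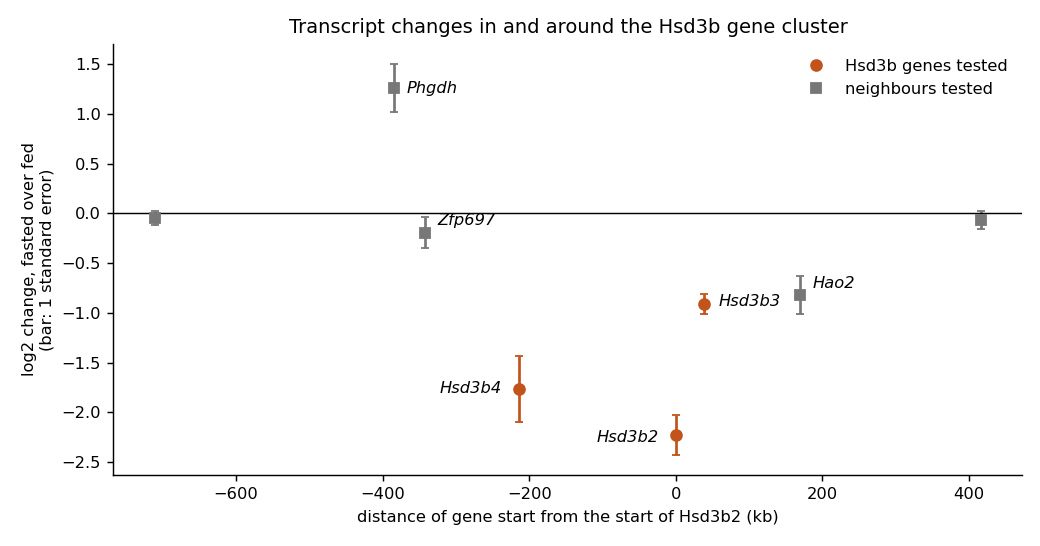
Log2 change, fasted over fed, of the 3 tested Hsd3b genes of the cluster and 5 of the 6 tested neighbours (vertical axis, bars 1 standard error) against the distance of their starts from the start of Hsd3b2 in kb. Hsd3b2 at -2.23, Hsd3b4 at -1.77 and Hsd3b3 at -0.91 lie between Phgdh at 1.26 on one side and Hao2 at -0.82 on the other.

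Hsd3b7, the member that acts on sterols of bile acid synthesis and not on hormones, did not share the decrease. It had 525, 494, 504 and 614 normalized counts in fasted libraries, against 391, 550, 371, 474 and 406 in fed libraries. Fed 2 lay among the fasted values and the other fed values lay below them. The log2 change was 0.30 (95% confidence interval 0.03 to 0.56, limma adjusted p = 0.143), which did not pass, so its interval reaches from little change to a moderate increase. Over the 17 alternatives it lay between 0.22 and 0.38 and passed in none (adjusted p 0.0538 to 0.347). Nsdhl, a relative that acts in cholesterol synthesis, fell (686 ± 40.6 normalized counts fasted, 1217 ± 275 fed, log2 change -0.79, limma adjusted p = 0.013), and passed in all alternatives except the one without Fed 3 and Fasted 1 together (adjusted p = 0.0672).

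Akr1c21, an aldo-keto reductase that acts on 17α- and 3α-hydroxysteroids, was the most abundant of the 9 genes and fell slightly. It had 20491, 17455, 23938 and 19706 normalized counts in fasted libraries, against 32526, 29923, 25259, 36916 and 22819 in fed libraries. The groups overlapped only in that Fasted 3 was above Fed 5. The means were 20397 ± 2688 fasted and 29488 ± 5634 fed, a ratio of 0.692, and the log2 change was -0.52 (95% confidence interval -0.83 to -0.21, limma adjusted p = 0.0397). The call is a weak one, lost in 8 of 17 alternatives: without Fasted 1 (adjusted p = 0.0853), Fasted 2 (0.11), Fasted 4 (0.108), Fed 1 (0.0947), Fed 2 (0.0776) or Fed 4 (0.0641), without the filter on low genes (0.0513), and without Fed 3 and Fasted 1 together (0.0773). The log2 change itself stayed between -0.61 and -0.43. In the authors' deposited table the adjusted p of Akr1c21 is 0.00323.

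**Figure D4:**
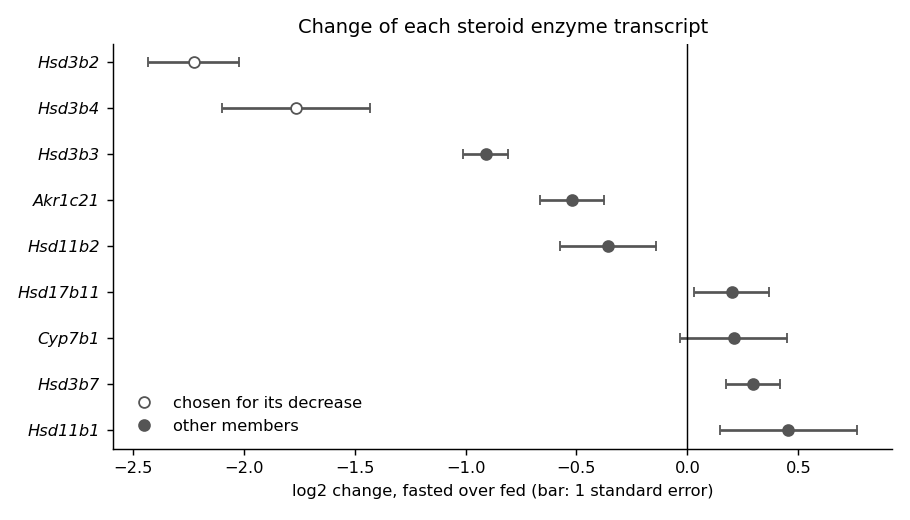
Log2 change, fasted over fed, of the 9 steroid enzyme genes (points, bars 1 standard error), ordered from the lowest at the top. Open points mark Hsd3b2 and Hsd3b4, which were chosen for their decrease; Hsd3b3 at -0.91 and Akr1c21 at -0.52 are the relatives that fell, and Hsd11b1 at 0.46 has the widest bar among the genes above 0.

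The enzymes of corticosterone did not change past the threshold. Hsd11b1 had 3366, 5788, 3605 and 1820 normalized counts in fasted libraries, against 2359, 4003, 1673, 2012 and 2790 in fed libraries. Both groups spread widely and overlapped. The log2 change was 0.46 (95% confidence interval -0.22 to 1.13, limma adjusted p = 0.379) and was 0.19 without Fasted 2, the highest library, and 0.75 without Fasted 4, the lowest fasted one. Hsd11b2 had 1259, 1315, 1405 and 1120 normalized counts in fasted libraries, against 1335, 1362, 2845, 1179 and 1880 in fed libraries. The fasted values were close together, and Fed 3 stood above all others. The log2 change of Hsd11b2 was -0.36 (95% confidence interval -0.83 to 0.12, limma adjusted p = 0.321) and -0.16 without Fed 3. Fed 3 also had the lowest sum of distal nephron markers, 155943 normalized counts, and the highest share of Rn45s. The single markers were mixed in Fed 3. Umod (68180), Scnn1b (1159) and Scnn1g (1144) were the lowest of all libraries there, and Slc12a3 (33924) and Slc4a1 (1244) the highest. The part of these traits in its Hsd11b2 level was not tested.

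Because Hsd11b1 and Hsd11b2 run opposite reactions, their ratio was tested as 1 value per library. The log2 ratio of Hsd11b1 to Hsd11b2 was 1.42, 2.14, 1.36 and 0.70 in fasted libraries, against 0.82, 1.55, -0.77, 0.77 and 0.57 in fed libraries. Hsd11b1 had more counts than Hsd11b2 in every library except Fed 3. The mean was 1.40 ± 0.59 fasted and 0.59 ± 0.84 fed, a difference of 0.81 that did not pass a two-sided exact permutation test (p = 0.19, where the smallest p the 126 arrangements allow is 0.0159). Without Fed 3 the difference was 0.47 (exact p = 0.343).

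**Figure D5:**
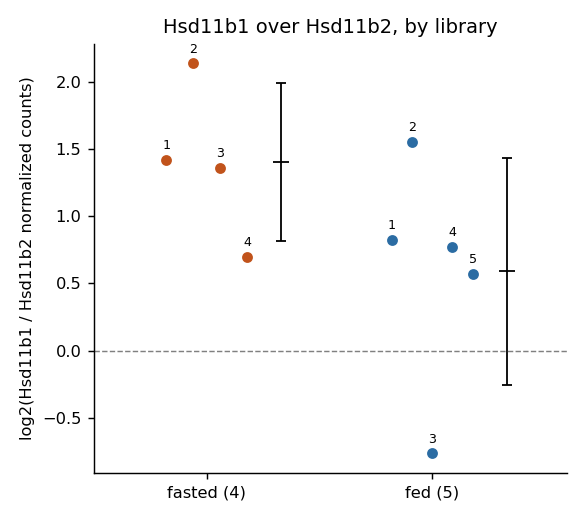
Log2 ratio of Hsd11b1 to Hsd11b2 normalized counts in each of 4 fasted and 5 fed libraries, numbered by replicate, with the mean ± SD in black. The groups overlap between 0.70 and 1.55, and Fed 3 at -0.77 is the only library below 0.

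Hsd17b11, a short-chain dehydrogenase found on lipid droplets, had 5319, 8684, 5933 and 4530 normalized counts in fasted libraries, against 5176, 6190, 5616, 4892 and 4187 in fed libraries. Fasted 2 was the highest of all and Fed 5 the lowest, and the other values mixed. The log2 change was 0.20 (95% confidence interval -0.17 to 0.57, limma adjusted p = 0.489), and 0.02 without Fasted 2. Cyp7b1, which hydroxylates oxysterols and dehydroepiandrosterone, had 6465, 4355, 7487 and 3676 normalized counts in fasted libraries, against 5900, 5809, 4624, 4337 and 2876 in fed libraries. Fasted 1 and Fasted 3 lay above all fed values and Fed 5 lay below all fasted ones, with the others mixed. The log2 change was 0.21 (95% confidence interval -0.32 to 0.74, limma adjusted p = 0.619). Without Fasted 3 it was 0.04, and without Fed 5 it was also 0.04.

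The 5 genes outside the Hsd3b family lie apart from each other in GRCm38 and share no 50-base stretch with another gene's transcripts: Hsd11b1 at chr1:193221634-193264075 (minus strand), Hsd11b2 at chr8:105518755-105523988 (plus), Hsd17b11 at chr5:103989762-104021919 (minus), Cyp7b1 at chr3:18071950-18243338 (minus) and Akr1c21 at chr13:4574075-4586541 (plus). Per kilobase of annotated exon, Akr1c21 was the highest of the 9 genes, at 13580 ± 1790 normalized counts fasted and 19633 ± 3751 fed. Cyp7b1 followed (2537 fasted, 2174 fed), and then Hsd17b11 (1873 fasted, 1596 fed). Hsd11b1 (857 fasted, 604 fed) and Hsd11b2 (693 fasted, 935 fed) stood in one order in fasted and in the other in fed cortex, with overlapping values. In fed cortex Hsd3b2, at 897, was near the Hsd11b genes. In fasted cortex it was near Hsd3b7, which had 193 fasted and 158 fed. Some of these orders depend on the length used. Per kilobase of coding sequence, the mean of Hsd17b11 (6842 fasted, 5830 fed) was above that of Cyp7b1 (3613 fasted, 3096 fed). On that scale the mean of Hsd11b1 (4161 fasted, 2931 fed) was above that of Hsd11b2 (1101 fasted, 1486 fed) in both groups.

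The highest and lowest values of the 9 genes fell in different libraries. Each gene has a highest and a lowest library, so nothing is read from their places. Fasted 2 held the highest value of all 9 libraries for Hsd11b1 and Hsd17b11 and the lowest for Hsd3b4 and Akr1c21. Fasted 4 held the highest value for Hsd3b7 and the lowest for Hsd3b2, Hsd3b3 and Hsd11b2. Fed 3 held the highest value for Hsd3b4 and Hsd11b2 and the lowest for Hsd3b7 and Hsd11b1. Fed 5 held the lowest fed value for Hsd3b2, Akr1c21, Cyp7b1 and Hsd17b11, and the highest fed sum of the PPARα targets, 133172 normalized counts against 82011 to 95749 in the other fed libraries. Without Fed 5 the log2 change of Hsd3b2 was -2.36 and that of Akr1c21 was -0.61 (adjusted p = 0.014). The part of feeding state in the values of Fed 5 was not tested.

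Acmsd, Gatm, Col15a1 and Col19a1 were among the genes whose profiles over the 9 libraries lay closest to that of Hsd3b2. Likeness was the root mean square difference between log2 profiles set to a mean of 0, and it was 0.25 for Acmsd, 0.29 for Gatm, 0.43 for Col15a1 and 0.44 for Col19a1. Acmsd is an enzyme of tryptophan breakdown and Gatm makes the precursor of creatine. Gatm had 6856 ± 786 normalized counts fasted and 24225 ± 6242 fed, and Acmsd had 778 ± 169 fasted and 3243 ± 1187 fed. Hsd3b4 was the 9th closest gene to Hsd3b2 at 0.49, Hsd3b3 the 112th and Akr1c21 the 318th. Since Hsd3b2 and Hsd3b4 were both chosen for their decrease in these libraries, closeness to each other and to other lower genes follows from that choice. Nothing about shared control is read from these ranks. Closest to Hsd3b4 were Hes2 (0.23), Mro (0.41), Slc10a2 (0.45), Lrtm2 (0.46) and Sdf2l1 (0.48), followed by Hsd3b2. Slc10a2 is a bile acid carrier, and it had between 478 and 989 normalized counts in fasted libraries and between 1273 and 1717 in fed libraries. Hes2 was a low transcript, at 6.83 ± 4.09 normalized counts fasted and 20.6 ± 5.77 fed.

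The counts of called genes in wider steroid pathways stand beside 5.72% higher and 5.25% lower over all genes tested, and nothing particular to a list is read from them. In the Hsd17b family, 2 of 10 tested genes rose and none fell: Hsdl2 (3878 ± 217 normalized counts fasted, 1658 ± 94.2 fed, log2 change 1.23) and Hsd17b4, a peroxisomal enzyme of fatty acid breakdown and bile acid synthesis (11880 ± 1137 fasted, 7476 ± 470 fed, log2 change 0.67). The median log2 change of the family was 0.12. Both passed in all 17 alternatives.

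Among 12 tested genes of the Akr1c family and the steroid reductases, 2 rose and 2 fell, with a median log2 change of -0.09. Akr1c13 (326 ± 53.9 normalized counts fasted, 193 ± 27.7 fed, log2 change 0.75) and Akr1c19 (795 ± 92.5 fasted, 595 ± 68.6 fed, log2 change 0.42) rose while their relative Akr1c21 fell. The steroid reductases Akr1d1, which forms 5β-steroids (870 ± 145 fasted, 1383 ± 196 fed, log2 change -0.67), and Srd5a1, which forms 5α-steroids (417 ± 16.5 fasted, 625 ± 137 fed, log2 change -0.55), fell. The calls of Akr1c13 and Akr1d1 held in all 17 alternatives. That of Akr1c19 was lost in 5 alternatives: without Fasted 1, Fasted 4, Fed 1 or Fed 2, and without Fed 3 and Fasted 1 together (adjusted p of at most 0.0866). That of Srd5a1 was lost in 7: without Fasted 1, 2, 3 or 4, without Fed 1 or 2, and without Fed 3 and Fasted 1 together (adjusted p of at most 0.0938).

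Of 15 tested genes of bile acid and oxysterol metabolism, 2 rose and 1 fell, with a median log2 change of 0.28. Beside Hsd17b4 and Akr1d1, this was Cyp27a1, the sterol 27-hydroxylase (2175 ± 206 normalized counts fasted, 1683 ± 159 fed, log2 change 0.37), whose call was lost without Fasted 2, 3 or 4 (adjusted p of at most 0.0624). Of 10 tested genes of steroid conjugation, 2 rose and none fell, with a median of -0.24. Sult1a1, a sulfotransferase, rose in every alternative (818 ± 41.9 fasted, 418 ± 92.4 fed, log2 change 0.99). Ugt1a1, a glucuronosyltransferase (151 ± 53.4 fasted, 76.9 ± 25.4 fed, log2 change 0.98, limma adjusted p = 0.045), lost its call in 10 of 17 alternatives: when any one of Fasted 1 to 4 or Fed 1 to 4 was left out, without Fed 3 and Fasted 1 together, and with no filter on low genes (adjusted p of at most 0.137).

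Among 13 tested steroid receptors and cofactor genes, 2 rose and 1 fell, with a median log2 change of 0.09. H6pd, which supplies the NADPH that Hsd11b1 needs, had 10818, 12174, 11612 and 11053 normalized counts in fasted libraries, against 8421, 9190, 7892, 8197 and 7886 in fed libraries. The groups were apart, with a log2 change of 0.46 (SE 0.07, limma adjusted p = 0.00225). Slc37a4, which carries glucose 6-phosphate to that enzyme, had 9422 ± 1261 fasted and 6839 ± 1179 fed (log2 change 0.47, limma adjusted p = 0.0414), and its call was lost in 9 of 17 alternatives: when any one of Fasted 1 to 4, Fed 1, Fed 3 or Fed 5 was left out, without Fed 3 and Fasted 1 together, and with array quality weights (adjusted p of at most 0.113). Fkbp4, a chaperone of steroid receptors, fell in all alternatives (3747 ± 166 fasted, 5463 ± 763 fed, log2 change -0.53).

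Of 14 tested mineralocorticoid targets and sodium transport genes, 1 rose and none fell, with a median log2 change of 0.07. It was Nedd4l, the ubiquitin ligase of the epithelial sodium channel (4685 ± 426 normalized counts fasted, 3727 ± 312 fed, log2 change 0.33, limma adjusted p = 0.0253), and its call was lost without Fasted 1, 3 or 4 or without Fed 1, 2 or 4 (adjusted p of at most 0.0784). Of 14 tested genes listed as androgen-responsive or male-biased in kidney, 3 fell and none rose, with a median of -0.11. They were Slc22a28, of the organic ion carrier family (1148 ± 322 fasted, 2636 ± 519 fed, log2 change -1.22), Timd2, a receptor for ferritin (907 ± 223 fasted, 1811 ± 351 fed, log2 change -1.01), and Odc1, the first enzyme of polyamine synthesis (1931 ± 648 fasted, 3869 ± 860 fed, log2 change -1.03). The calls of Slc22a28 and Timd2 held in all 17 alternatives, and that of Odc1 in all but the one without Fed 3 and Fasted 1 together (adjusted p = 0.0735).

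Of 13 listed genes of glandular steroid synthesis, 7 could be tested, of which 1 rose and none fell, with a median log2 change of 0.07. Cyp17a1, which makes androgen precursors, had 26.0, 32.1, 22.1 and 40.0 normalized counts in fasted libraries, against 6.70, 13.8, 11.8, 8.59 and 22.9 in fed libraries. The groups overlapped through Fed 5, and the log2 change of 1.25 (limma adjusted p = 0.0346) lost its call in 8 of 16 alternatives: without Fasted 1, 2 or 4, without Fed 1, 2, 3 or 4, and without Fed 3 and Fasted 1 together (adjusted p of at most 0.116). Star, the cholesterol carrier of steroid-making cells, had 261 ± 25.2 fasted and 217 ± 52.5 fed and did not pass (limma adjusted p = 0.254), though it passed without Fed 5 (adjusted p = 0.0268).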

How the data were processed

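The deposited signal of each gene in each of the 9 libraries is the authors' read count divided by 1 size factor per library, called normalized count here. All 161194 values above 0 were whole multiples of their library's step within 0.01 reads, so the reads could be recovered, and 1 read is worth 0.744 to 1.32 normalized counts. FastQC, TopHat2 2.0.9, HTSeq 0.9.1 and DESeq2 (given as 3.5) with builds mm10 and hg19 are named per the submitters' processing notes. The annotation and strand setting of counting are not given in the sources used here. The deposited log2 fold changes and their adjusted p-values are the authors' own, and the fold changes are pulled towards 0.

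The members and gene lists were chosen with earlier results of these data known. Groups followed the treatment label, and replicate numbers follow accession order. The main test was limma 3.58.1 with trend in R 4.3.3, two-sided, on log2(normalized count + 1), over the 15098 genes averaging 10 or more, with Benjamini-Hochberg adjustment over all of them and a threshold of 0.05. Reported log2 changes are fasted over fed on this scale, which understates changes of low genes, and intervals are 95%. The p-values rest on the spread between single mice. The Hsd11b ratio had an exact permutation test over libraries. The 17 alternatives were no filter, an average of 50 or more, a pseudocount of 10, TMM factors, count tests on the recovered reads (edgeR 4.0.16 quasi-likelihood, or DESeq2 1.42.0), array weights, each library left out, and Fed 3 and Fasted 1 left out together, the last chosen after seeing the data. Named genes are all 9 members, the other Hsd3b genes, up to 4 called genes of each list by smallest adjusted p, the 5 nearest profiles to Hsd3b2 and to Hsd3b4 (unnamed and predicted symbols left out), the 3 neighbours with the smallest adjusted p and defining markers of adrenal cortex and hepatocytes. Not every gene chosen in this way is reported here, though all stay in the counts. Zfp697 was added for its overlap with the members, and Hsd3b8 and Hsd3b9 are not used here. The main test was tried on simulated counts of 15098 genes, of which 200 were changed. It recovered 77% of 2-fold and 98% of 4-fold changes, with 6 false calls. The simulation used the same spread setting for all genes, so recovery in the real data may differ. A gene that did not pass may thus still have changed. Positions are from GENCODE M21, and all 9 identifiers matched.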

Additional observations from a re-analysis of the deposited data

Results flagged for a closer look

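Of 94 groups of libraries examined, for the members, their ratio and the other named genes, 4 held a library far from the rest of its group, where chance gives about 1 in 20. None of these was in a member of the set. Fed 5 lay apart in 2 of them: Nsdhl was 739 normalized counts there, below the other fed libraries, and Star was 308, above them. Fasted 2 lay below the other fasted libraries in Hao2, at 3635 normalized counts. Fasted 1 lay above the other fasted libraries in Fkbp4, at 3993 normalized counts. The part of feeding state, depth or tissue sampling in these values was not tested.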

How the results depend on the processing

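No member changed direction in any of the 17 alternatives. Hsd3b3 passed and Hsd3b7, Hsd11b1, Hsd11b2, Hsd17b11 and Cyp7b1 did not pass in any of them, and Akr1c21 passed in 9. The number of genes called, 1656, was 2798 with array quality weights, 1068 without Fed 3 and Fasted 1 together and between 861 and 1959 with 1 library left out. Leaving out Fasted 1 gave 1084, leaving out Fasted 3 gave 1062, leaving out Fasted 4 gave 861 and leaving out Fed 1 gave 1004, while edgeR called 1655 and DESeq2 2382. The difference of the Hsd11b log2 ratio lay between 0.47 and 1.05 with 1 library left out. Of 340 list counts over the alternatives, 273 were within 1.5 times the reported one and 67 were not. The cause of these shifts was not tested. No paired analysis was possible because the titles carry no replicate numbers that link mice of the groups. Depth limits Hsd3b1, Hsd3b5 and Hsd3b6. Likeness of copies limits Hsd3b4 and Hsd3b7 most, and Hsd3b2 and Hsd3b3 in part.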
